A study of Homo sapiens with 208 samples.

Results

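PC9 cells, an established human line from a lung adenocarcinoma, carry an activating deletion in EGFR, the gene of the epidermal growth factor receptor, and gefitinib is a small molecule that blocks the kinase of this receptor. The comparison here set PC9 cells given gefitinib against PC9 cells given no treatment through the middle of a 24 h time course, at the time labels from 5 to 13 h. The series holds 8 time courses of 26 arrays, 52 of them PC9 arrays of these 2 treatments, and 18 were chosen, those whose labels name PC9, gefitinib or no treatment without EGF, and 1 of these 9 hours. They form 9 arrays a side and 1 pair of arrays per hour. All cells, the untreated ones included, had been starved for 48 h, and the treated cells received gefitinib at 0.5 µM, added ahead of time 0 in the scheme of the study. PC9 arrays of the same 2 treatments at 0 to 4 h (12 arrays) and at 14 to 24 h (22 arrays) were used to place this middle window within the course. The gefitinib response of PC9 cells that also received 100 ng/ml EGF, and that of PC9GRM2 cells without EGF, were each taken from 18 arrays of the same hours. PC9GRM2 is 1 line that was isolated from PC9 after prolonged culture with gefitinib and selected for a weak response to the drug, so it is a single isolate.

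The epidermal growth factor receptor passes its signal through 2 main branches. In the ERK branch, a kinase cascade phosphorylates transcription factors that switch on early genes such as EGR1 and FOS, together with phosphatases and Sprouty proteins that feed back on the cascade. In the PI3K and AKT branch, AKT keeps the FOXO transcription factors out of the nucleus, and FOXO factors switch on genes for cell cycle inhibitors and some cell death proteins when AKT activity is low. Both branches feed the passage from G1 into S phase, in which cyclin E and the E2F factors drive the genes of DNA replication. Lung cancer cells with activated EGFR are known for their reliance on this input.

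Each hour had 1 array per group and no replicate array, so that the spread between the 9 hours was the only measure of error and every p-value refers to it. Signals are log2 values of quantile normalized intensities, and a difference is the signal with gefitinib minus the signal without at the same hour. A gene was tested where its probe was well above background, by the mark of the scanner software, on 5 or more arrays of either side. This left 12926 genes, 10275 of which were well above background on all 18 arrays. The number of features above background in this sense ran from 24755 to 32241 per array, and the lowest numbers belonged to the untreated arrays at 5 h (24755) and 6 h (26310), while every other array reached 29126 or more. The arrays at 5 and 6 h were also scanned together on the first of the 4 scan days of the window. Several results are given below both with and without them, but not every list count. Both treatments of an hour shared a slide. The untreated sample always lay at position 1 of the slide and the gefitinib sample at position 4, so treatment and slide position cannot be told apart. All 8 epithelial markers fixed for the check of the cell type, EPCAM, KRT7, KRT8, KRT18, KRT19, CDH1, CLDN4 and CLDN7, were well above background on all 18 arrays, with summed intensities of 221000 to 247000 with gefitinib and 217000 to 296000 without. Of 8 lung lineage markers, 3 were well above background on all 18 arrays and NKX2-1, the defining factor of the distal lung, on 1 of 18. Of the 5 fibroblast markers with a probe, 0 were well above background on all arrays, and COL3A1, LUM and PDGFRB were so on 0 of 18. For leukocytes it was 1 of 6 markers (CD14), with LYZ and SPI1 at 0 of 18, and for endothelial cells 2 of 5 (PECAM1 and VWF), with KDR and TEK at 0 of 18. The summed intensities of each of these 4 lists overlapped between the groups.

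Most tested genes were called as differing between the gefitinib and untreated PC9 arrays of this window. Of the 12926 genes tested, 7891 (61%) were called at an adjusted p under 0.05, with 3914 (30.3%) higher and 3977 (30.8%) lower with gefitinib. A difference of at least 1 log2 unit was found for 2432 of them, 1338 higher and 1094 lower, and one of at least 2 log2 units for 489. Over the tested genes the absolute difference had a median of 0.44 and the signed difference one of 0. In 5258 called genes the difference had the same sign at all 9 hours, and in 3067 genes (23.7% of those tested) the 9 signals with gefitinib did not overlap the 9 without, 1635 (12.6%) lying above and 1432 (11.1%) below. Within the scan days of 5 to 6 h, 7 to 9 h, 10 to 12 h and 13 h, 92.9%, 99.9%, 99.8% and 96.6% of the called genes kept their direction. The hours of each day are part of the mean that made the call, so high shares follow in part from the calling. Since the samples are bulk RNA, fewer cells of a state and less RNA of a gene per cell cannot be told apart.

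The differences grew over the course. The standard deviation of the differences over genes was 0.44 at 0 h, 0.85 at 5 h, 1.13 at 13 h and 1.39 at 24 h. Against the mean difference of 0 to 4 h, the mean of 5 to 13 h differed for 3758 genes (29.1%), with 1967 (15.2%) more positive and 1791 (13.9%) more negative, and the middle difference was the larger in size for 3371 of them and the smaller for 387. Against 14 to 24 h it differed for 3626 genes (28.1%), with 1774 (13.7%) more positive and 1852 (14.3%) more negative, and it was the smaller in size for 3144 and the larger for 482. Without 5 and 6 h, 4109 genes differed from 0 to 4 h and 2556 from 14 to 24 h. Within the window, the slope of the difference over the hours was called for 912 genes (7.06%), of which 364 (2.82%) rose and 548 (4.24%) fell. With the hours 5 and 6 left out, an alternative chosen after the data were seen, limma called 0 slopes, with 1588 at an unadjusted p under 0.05, and all 912 kept their sign. Leaving out 1 hour gave 168 slopes without 5 h, 441 without 6 h, 508 without 12 h and 307 without 13 h, and 609 to 932 without any other hour.

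**Figure D1:**
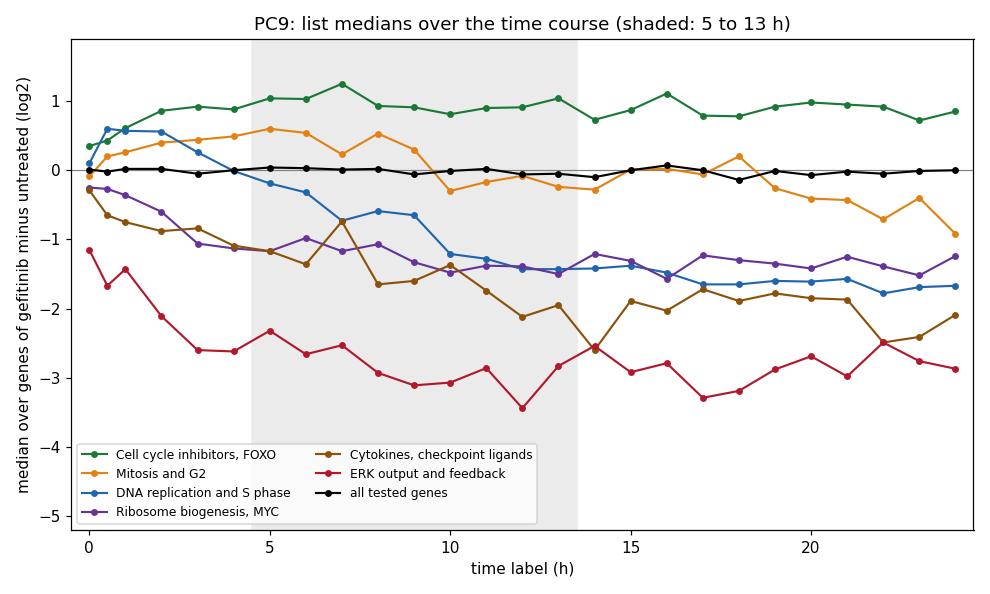
Median over the tested members of 6 gene lists, and over all tested genes (black), of the gefitinib minus untreated difference (vertical axis, log2) at each of the 26 time labels (horizontal axis, h) in PC9, with 1 pair of arrays per point and the window of 5 to 13 h shaded. The ERK list lay between -2.32 and -3.44 throughout the window, while the S phase list moved from -0.19 at 5 h to -1.43 at 13 h.

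Genes were read in 17 lists of pathways and cell functions with 500 places in all, of which 446 were tested, 42 were too dim to test and 12 had no matching probe. The ERK output and feedback genes had the lowest list median of the 17. Under the normexp background correction described at the end, the ribosome biogenesis list had the lower median. Of 25 listed genes 23 were tested. Of these 23, 22 were lower and 0 were higher, against 30.8% and 30.3% of all genes, and their median difference was -2.84 against 0 over all genes. The remaining member, IER3, an early response gene, differed by -0.35 (adjusted p = 0.0579). Without 5 and 6 h all 23 were lower. In 19 of the 23 the gefitinib signals lay below all untreated signals, as in 11.1% of all genes.

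DUSP6 encodes a phosphatase that removes phosphate from ERK. Its untreated signals had a lowest, median and highest value of 12.87, 13.34 and 13.7 over the 9 hours, and its gefitinib signals of 5.29, 6.44 and 6.84. The groups were far apart, and the mean difference of -7.08 ± 0.17 (SE, n = 9, adjusted p = 3.49e-10) amounts to a level 136-fold lower, the largest fall among genes well above background on all 18 arrays. The difference had been -4.54 at 0 to 4 h and was -7.81 at 14 to 24 h. SPRY4, a Sprouty inhibitor of the cascade, had untreated signals of 9.67, 9.9 and 10.72 and gefitinib signals of 4.33, 4.48 and 4.74. It did not overlap between groups and fell by 5.63 (SE 0.13, adjusted p = 2.21e-10), with 6 of 9 gefitinib arrays well above background.

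The early transcription factors followed the same direction. EGR1 went from 9.33, 9.61 and 10.62 without gefitinib to 5.88, 6.25 and 6.86 with it, and FOS from 11.24, 11.38 and 12.07 to 8.22, 8.5 and 8.77. Neither overlapped between groups, and the mean differences were -3.61 ± 0.17 (adjusted p = 1.71e-08) and -3.06 ± 0.1 (adjusted p = 1.08e-09). The FOS difference was smaller in size than that of 0 to 4 h (-3.55) and larger than that of 14 to 24 h (-2.22), with adjusted p of 0.0236 and 7.36e-05 for these contrasts. FOSL1, a partner of the AP-1 factors, passed the background mark on all 9 untreated arrays and on 2 with gefitinib, and fell by 4.6 (adjusted p = 1.44e-07). EGR3 and the feedback inhibitor gene SPRED1 were not well above background on any gefitinib array. Their levels were at least 10.6-fold (adjusted p = 4.82e-08) and at least 12.8-fold (adjusted p = 1.75e-07) lower, the bounds being taken against the lowest signal that counted as well above background.

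The ETS factors ETV5 and ETV4, which act downstream of ERK, fell by 5.07 (SE 0.41, adjusted p = 7.92e-07, 5 of 9 gefitinib arrays well above background) and 2.64 (SE 0.27, adjusted p = 4.96e-06). Their differences at 0 to 4 h had been -1.36 and -0.49, before most of this fall. ETV1 was not well above background on any gefitinib array and on 7 of 9 untreated arrays, which puts its level at least 4.76-fold lower (adjusted p = 0.000147). Cyclin D1, the product of CCND1 and the partner of CDK4 and CDK6 in G1, had untreated signals of 8.88, 9.27 and 9.91 and gefitinib signals of 6.96, 7.48 and 8. Its groups did not overlap, and it fell by 1.82 (SE 0.16, adjusted p = 1.56e-06). The smallest called falls in the list were those of DUSP5 (-0.92), SPRY1 (-0.92) and EPHA4 (-0.76).

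**Figure D2:**
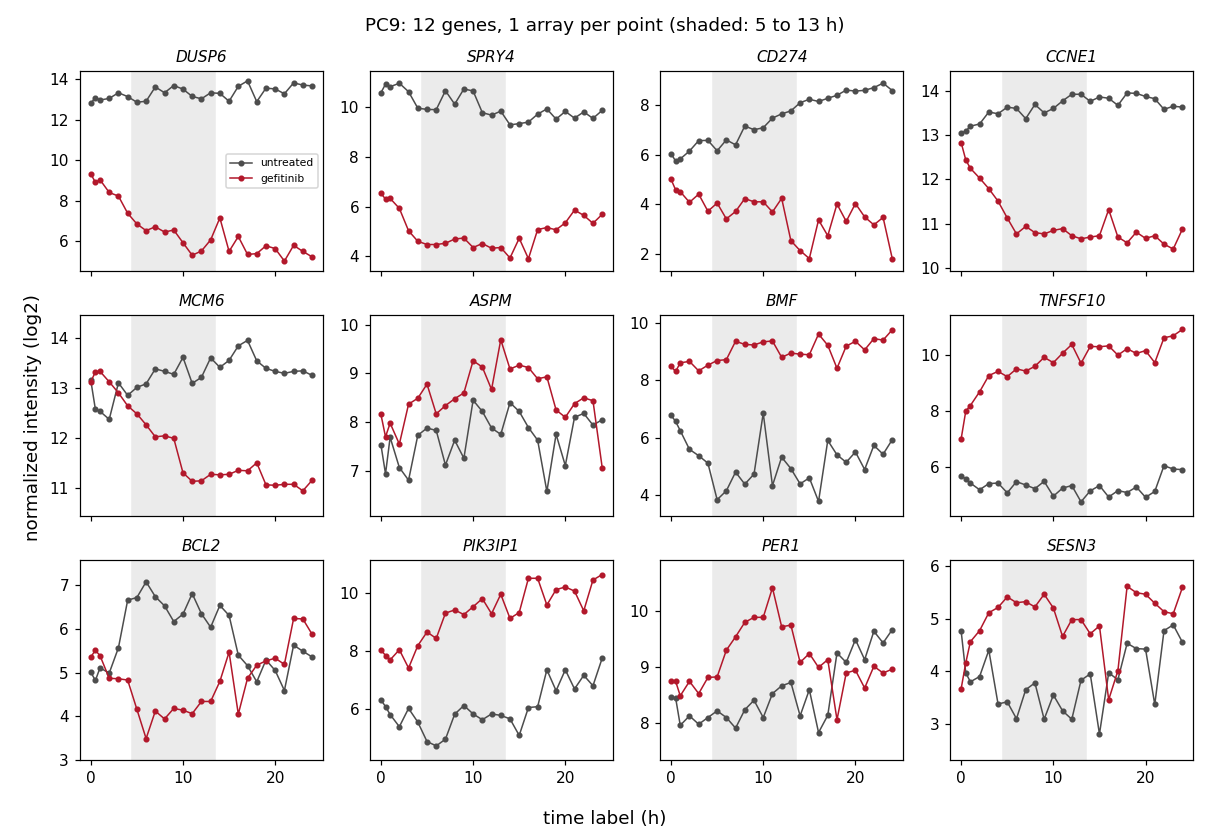
Signals (vertical axis, log2 normalized intensity, 1 array per point) of 12 genes at each time label (horizontal axis, h) in untreated (grey) and gefitinib (red) PC9 cells, with 5 to 13 h shaded. DUSP6 with gefitinib does not exceed 6.84 in the window while the untreated signal does not fall below 12.87, and every untreated BCL2 signal of the window (6.04 or more) lies above every gefitinib signal (4.34 or less).

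Of 20 tested genes of receptors and their ligands, 8 (40%) were higher and 8 (40%) lower, against 30.3% and 30.8% of all genes, with a median of -0.13. Ligands of EGFR and a receptor inhibitor were among those that fell. HBEGF, AREG and TGFA, ligands of the receptor itself, fell by 2.78 (adjusted p = 5.36e-07), 2.34 (adjusted p = 3.89e-07) and 1.28 (adjusted p = 1.37e-06), and ERRFI1, which binds and inhibits the active receptor, fell by 2.17 (adjusted p = 1.18e-06). AREG had untreated signals of 8.74, 9.43 and 9.62 and gefitinib signals of 6.54, 6.93 and 7.33, with no overlap.

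Partners of EGFR and other receptor kinases were among those that rose. FGFR3, a fibroblast growth factor receptor, had untreated signals of 8.3, 8.79 and 9.04 and gefitinib signals of 11.36, 12.21 and 12.48, with no overlap, and rose by 3.4 (SE 0.17, adjusted p = 2.01e-08). Its difference was 0.85 at 0 to 4 h and 4.51 at 14 to 24 h. FGFR1 rose by 3.14 (SE 0.18, adjusted p = 6.93e-08), from a median of 5.87 to one of 9.44. ERBB3 and ERBB2, which pair with EGFR, rose by 2.01 (SE 0.16, adjusted p = 5.65e-07) and 1.88 (SE 0.18, adjusted p = 3e-06), the insulin receptor gene INSR by 1.98 (adjusted p = 9.22e-08) and IGF1R by 0.65 (adjusted p = 0.000119). These 6 genes had no overlap between the groups. The target of the drug, EGFR, moved little, from 11.43, 11.64 and 11.99 to 11.16, 11.3 and 11.49, and its overlapping groups differed by -0.32 (SE 0.08, adjusted p = 0.00457). MET differed by -1.05 (adjusted p = 0.00164), with 5 gefitinib and 7 untreated arrays well above background.

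Most genes of DNA replication and S phase fell, and the list median was lower from 10 to 13 h than from 5 to 9 h. Of 41 tested members, 33 were lower, 1 was higher and 7 were not called, against 30.8% lower and 30.3% higher over all genes, and the median difference was -0.91. In 12 members the gefitinib signals lay below all untreated signals, and in 1 above, where 11.1% and 12.6% of all genes did so. The list median had been 0.31 at 0 to 4 h, was -0.19 at 5 h, -0.73 at 7 h, -0.59 at 8 h, -0.65 at 9 h and -1.43 at both 12 and 13 h, and was -1.66 at 14 to 24 h. For 32 of the 41 members the difference was more negative than at 0 to 4 h (13.9% of all genes), for 29 it was less negative or more positive than at 14 to 24 h (13.7% of all genes were more positive), and for 22 the slope within the window was called as falling (4.24% of all genes). The step from 9 to 10 h, -0.65 to -1.21, came at a change of scan day, and a change of the cells and a change of day cannot be told apart at that step. Without 5 and 6 h, 36 members were lower, 34 were more negative than at 0 to 4 h and 17 more positive than at 14 to 24 h. No slope was then called, with 39 of 41 slopes negative and a median of -0.17 per hour both with and without these hours.

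CCNE1, which encodes cyclin E1, the partner of CDK2 at the entry into S phase, showed the deepest fall of the list. Its untreated signals were 13.37, 13.63 and 13.92 and its gefitinib signals 10.66, 10.8 and 11.13. The groups lay apart at every hour, and the mean difference was -2.83 ± 0.1 (adjusted p = 1.86e-09), with hourly values between -2.43 and -3.26 and a slope that was not called (-0.08 per hour, adjusted p = 0.134). The replication factors fell more gradually. MCM6, a subunit of the replicative helicase, differed by -0.53 at 5 h, -1.28 at 9 h and -2.33 at 13 h, with untreated signals of 13.01, 13.27 and 13.61 and gefitinib signals of 11.13, 11.99 and 12.48. Its groups did not overlap, its mean difference was -1.55 ± 0.19 (adjusted p = 2.31e-05) and its slope -0.22 per hour (adjusted p = 0.00954).

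GINS2 and MCM10, which load with the helicase, fell by 2.12 (adjusted p = 1.35e-05) and 2.29 (adjusted p = 6.2e-06), with slopes of -0.3 and -0.29 per hour (adjusted p = 0.00267 for each). RRM2, a subunit of ribonucleotide reductase, fell by 2.08 (SE 0.33, adjusted p = 0.000166), with overlapping groups, and E2F1, an activator of these genes, by 1.27 (adjusted p = 0.000316, slope -0.27 per hour). The same 4 genes had differed by 0.27, 0.16, -0.28 and 0.62 at 0 to 4 h. PCNA, the sliding clamp of the polymerases, fell by 0.91 (SE 0.17, adjusted p = 0.000618), with overlapping groups. CCNE2, the other cyclin E gene, fell by 1.35 (adjusted p = 0.000294), also with overlapping groups. RRM1, TK1 and PRIM1 differed by -0.08, 0.16 and 0.19 and were not called. The member that rose was E2F2 (1.1, adjusted p = 2.57e-06), but its other probe, well above background on all 18 arrays, differed by -0.12.

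E2F factors bind a short element that is common in promoters of replication genes. The letters TTTGGCGC or TTTCGCGC, on either strand, were found in 11 of the 35 promoters of the list that RefSeq supplied (31.4%), in 2.12% of the 10438 promoters of tested genes and in 1.18% of all 27305 promoters. A promoter here is the stretch from 250 bases before to 50 bases after the annotated start, in GRCh38.p14. A match is a description of letters only. The examples below were chosen among called members whose promoter holds these letters. The promoters of MCM6 (chr2:135876394-135876693, minus strand) and of POLE2, a subunit of DNA polymerase epsilon (chr14:49688165-49688464, minus strand), are shown as examples from 2 genes with falls of 1.55 and 1.53, the capitals marking the matches, some of which overlap.
MCM6: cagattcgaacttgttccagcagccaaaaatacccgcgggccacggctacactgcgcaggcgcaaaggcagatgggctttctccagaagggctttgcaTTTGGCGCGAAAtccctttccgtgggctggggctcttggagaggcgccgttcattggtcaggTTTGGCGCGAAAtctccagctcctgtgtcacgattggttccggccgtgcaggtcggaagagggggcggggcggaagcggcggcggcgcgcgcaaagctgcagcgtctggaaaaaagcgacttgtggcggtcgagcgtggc
POLE2: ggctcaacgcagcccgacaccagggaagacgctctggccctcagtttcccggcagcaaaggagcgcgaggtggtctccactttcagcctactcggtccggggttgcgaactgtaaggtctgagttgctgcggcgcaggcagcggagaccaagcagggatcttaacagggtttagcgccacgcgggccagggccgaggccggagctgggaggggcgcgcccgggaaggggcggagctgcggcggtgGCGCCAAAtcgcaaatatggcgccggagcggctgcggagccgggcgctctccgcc

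Genes of mitosis and G2 did not follow S phase. Of 31 tested members, 12 (38.7%) were higher, 2 (6.45%) were lower and 17 were not called, with a median of 0.13. The share that was higher was near the 30.3% of all genes, and the share that was lower was below their 30.8%. The list median was 0.6 at 5 h and 0.3 at 9 h, then -0.3 at 10 h and -0.24 at 13 h, and the drop again fell on the change of scan day, so that the cells and the day cannot be told apart. For 19 members the difference was more positive than at 14 to 24 h (13.7% of all genes), where the list median was -0.3. Without 5 and 6 h, 9 members were higher and 5 lower, and 11 were more positive than at 14 to 24 h.

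Among those that rose were CCNB2, a cyclin of CDK1, by 0.73 (adjusted p = 4.18e-05), NEK2, a centrosomal kinase, by 0.92 (adjusted p = 0.000127), and ASPM, a spindle pole protein, by 1.01 (adjusted p = 5.86e-05). CCNB2 had untreated signals of 12.35, 12.73 and 12.95 and gefitinib signals of 13.3, 13.4 and 13.52. CCNB2 and NEK2 were the only list members of 31 without overlap, whereas 12.6% of all genes lay above every untreated signal and 11.1% below. CCNA2 and CDC20 fell by 0.42 (adjusted p = 0.0239) and 0.34 (adjusted p = 0.0336). PLK1, the main mitotic kinase next to CDK1, rose by 0.67 (adjusted p = 0.000223), and CCNB1 and AURKB differed by 0.09 (adjusted p = 0.554) and -0.45 (adjusted p = 0.0537). CDK1 itself differed by 0.46 at 5 h and by -0.65 at 13 h, with a mean of -0.27 (adjusted p = 0.107) and a called slope of -0.14 per hour (adjusted p = 0.0423). Of the 26 promoters supplied for this list, 16 (61.5%) held TTTGAA, the letters of the cell cycle homology region, on either strand. The share was 9.93% in the promoters of tested genes and 15.4% in all promoters.

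**Figure D3:**
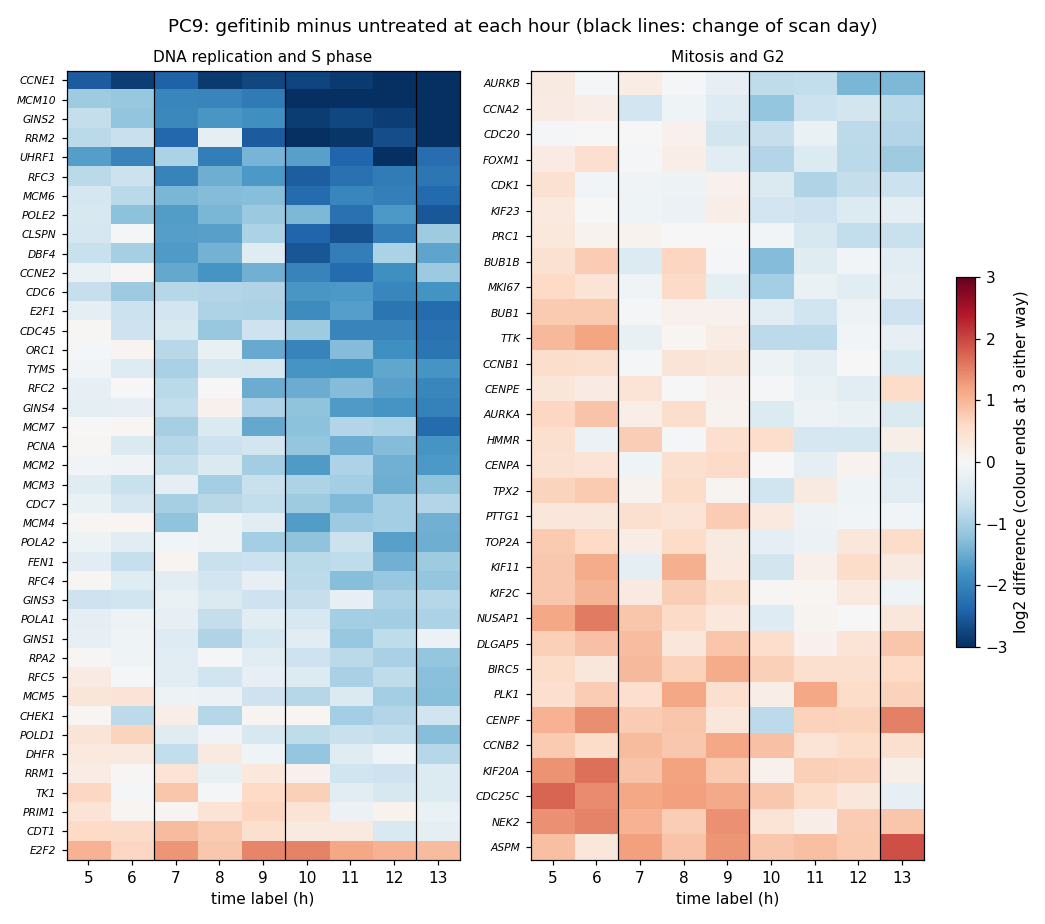
Gefitinib minus untreated difference (colour, log2, ends of the scale at 3 either way) of each tested member of the S phase list and of the mitosis list (rows) at each hour from 5 to 13 h (columns), with black lines where the scan day changed. The S phase rows grow bluer to the right, from a median of -0.19 at 5 h to -1.43 at 13 h, and the mitosis rows turn from mostly red to pale, from 0.6 to -0.24.

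Cell cycle inhibitors and targets of FOXO factors rose. Of 28 tested members, 21 were higher and 5 lower, against 30.3% and 30.8% of all genes, with a median of 0.96. The groups did not overlap in 15 members that were higher and 3 that were lower, against 12.6% and 11.1% of all genes. PIK3IP1, which encodes an inhibitor of PI3K, had untreated signals of 4.73, 5.78 and 6.12 and gefitinib signals of 8.43, 9.3 and 9.95. It did not overlap and rose by 3.78 (SE 0.13, adjusted p = 1.1e-09). BCL6, a repressor controlled by FOXO factors, rose by 2.52 (SE 0.11, adjusted p = 1.04e-08) from a median of 11.87 to one of 14.39, after a difference of 2.28 at 0 to 4 h. CCNG2, an atypical cyclin induced by FOXO factors, rose by 1.64 (SE 0.21, adjusted p = 2.74e-05), without overlap.

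Of the genes for inhibitors of cyclin-dependent kinases, CDKN1C (p57) rose by 2.87 (SE 0.12, adjusted p = 5.76e-09), CDKN1B (p27) by 1.19 (SE 0.09, adjusted p = 3.92e-07), CDKN2C (p18) by 1.09 (adjusted p = 1.61e-05) and CDKN2B (p15) by 0.81 (adjusted p = 3.94e-05). CDKN1B had untreated signals of 7.02, 7.86 and 8.04 and gefitinib signals of 8.04, 8.98 and 9.26, the lowest with gefitinib lying at the highest without. CDKN1A (p21) went the other way, by -1.04 (SE 0.18, adjusted p = 0.000308, overlapping groups), as did CDKN2D (p19) by -1.13 (adjusted p = 2.16e-05) and the stress gene GADD45A by -1.4 (adjusted p = 8.7e-07). The factors FOXO1 and FOXO4 rose by 0.87 (adjusted p = 6.78e-05) and 1.33 (adjusted p = 1.56e-06), while FOXO3 differed by 0.14 (adjusted p = 0.324).

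Forkhead factors such as FOXO bind GTAAACA. These letters, on either strand, stood in 3 of 26 promoters of the list (11.5%), in 2.27% of the promoters of tested genes and in 3.41% of all promoters. Holding the letters was a condition for choosing the examples. The examples are FOXO4 (chrX:71095601-71095900, plus strand) and BTG1 (chr12:92145797-92146096, minus strand), a growth inhibitor that rose by 0.81, with the match in capitals.
FOXO4: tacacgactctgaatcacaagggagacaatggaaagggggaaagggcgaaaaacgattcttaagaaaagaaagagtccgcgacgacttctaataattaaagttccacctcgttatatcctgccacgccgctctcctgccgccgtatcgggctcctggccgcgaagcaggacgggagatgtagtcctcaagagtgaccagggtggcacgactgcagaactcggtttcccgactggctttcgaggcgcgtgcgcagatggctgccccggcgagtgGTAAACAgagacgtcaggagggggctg
BTG1: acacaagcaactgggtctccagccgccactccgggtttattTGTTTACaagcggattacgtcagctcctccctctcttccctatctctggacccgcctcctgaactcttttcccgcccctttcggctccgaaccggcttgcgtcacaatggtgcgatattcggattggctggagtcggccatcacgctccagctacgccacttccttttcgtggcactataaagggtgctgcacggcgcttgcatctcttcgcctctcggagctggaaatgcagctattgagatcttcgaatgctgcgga

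Of 24 tested cell death genes, 8 (33.3%) were higher and 10 (41.7%) lower, against 30.3% and 30.8% of all genes, with a median of -0.06. TNFSF10, the death ligand TRAIL, showed the largest rise of the list, from untreated signals of 4.75, 5.24 and 5.48 to gefitinib signals of 9.22, 9.7 and 10.37. The groups were apart at all hours and the difference was 4.52 ± 0.13 (adjusted p = 6.19e-10), after 2.98 at 0 to 4 h. BMF, a BH3-only protein that binds and blocks BCL2 proteins, had untreated signals of 3.85, 4.74 and 6.86, the highest at 10 h, and gefitinib signals of 8.69, 9.23 and 9.37. It rose by 4.26 (SE 0.24, adjusted p = 4.65e-08), with no overlap.

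The other BH3-only genes had smaller differences. HRK, BAD and PMAIP1 rose by 1.11 (adjusted p = 3.05e-05), 1.03 (adjusted p = 2.37e-06) and 0.55 (adjusted p = 0.00115). BCL2L11, which encodes BIM, rose by 0.7 (SE 0.27, adjusted p = 0.0385), with overlapping groups and 5 of 9 untreated arrays well above background. The call was lost under 12 of 19 alternatives, which gave differences of 0.07 to 1.07. Its 3 other probes, well above background on all 18 arrays, differed by 0.9, 0.28 and 0.17. BID fell by 0.64 (adjusted p = 0.000572), and BIK differed by -0.25 (adjusted p = 0.0859). BBC3, which encodes PUMA, was saturated on all 18 arrays, so no difference in level can be read from it.

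TRAIL receptors and several survival genes fell, while BCL2L2, another survival gene of the family, differed by 0.18 (adjusted p = 0.0647). TNFRSF10A and TNFRSF10B, the receptors of TRAIL, fell by 2.35 (SE 0.17, adjusted p = 3.86e-07) and 1.31 (adjusted p = 6.1e-06), FAS by 1.37 (adjusted p = 6.56e-06), and BCL2L1 and MCL1, which protect mitochondria, by 1.42 (adjusted p = 0.000391) and 0.58 (adjusted p = 0.000208). BCL2, the founding member of the family, had untreated signals of 6.04, 6.53 and 7.08 and gefitinib signals of 3.49, 4.14 and 4.34 in the window, without overlap, and fell by 2.44 (SE 0.17, adjusted p = 2.21e-07), with 8 of 9 gefitinib arrays well above background. Its untreated signal was 5.01 at 0 h, 6.66 at 4 h and 5.16 at 17 h, and its gefitinib signal 5.36, 4.83 and 4.87 at these hours. On average the difference was large in this window and smaller on either side, with means of -0.22 at 0 to 4 h and -0.1 at 14 to 24 h. At 4 h, however, the gefitinib signal already lay well below the untreated one. BCL2 belongs to the genes selected below for this pattern.

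Ribosome biogenesis genes fell. Of 32 tested members, 27 were lower and 2 higher, against 30.8% and 30.3% of all genes, with a median of -1.36, after -0.59 at 0 to 4 h. In 21 members the gefitinib signals lay below all untreated signals, as in 11.1% of all genes. ODC1, the rate-limiting enzyme of polyamine synthesis, had untreated signals of 14.22, 14.34 and 14.68 and gefitinib signals of 10.9, 11.58 and 12.43, with no overlap, and fell by 2.9 (SE 0.2, adjusted p = 2.66e-07). LYAR, a nucleolar protein, fell by 2.13 (SE 0.1, adjusted p = 1.79e-08), SRM, spermidine synthase, by 1.85 (adjusted p = 4.95e-08), the helicase gene DDX21 by 1.72 (adjusted p = 1.89e-06), and POLR1B, the second largest subunit of RNA polymerase I, by 2 (adjusted p = 3.03e-07). NOP56 and NOP58, core proteins of small nucleolar ribonucleoproteins, fell by 1.39 (adjusted p = 1.33e-07) and 1.2 (adjusted p = 8.5e-06). WDR12 and NOB1 rose by 0.36 (adjusted p = 0.00675) and 0.42 (adjusted p = 0.00214), and NPM1 was saturated on all 18 arrays.

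Glycolysis genes fell less evenly. Of 24 tested members, 14 (58.3%) were lower and 1 (4.17%) was higher, against 30.8% and 30.3% of all genes, with a median of -0.67. PDK1, which keeps pyruvate out of the mitochondria, had untreated signals of 10.41, 10.63 and 10.9 and gefitinib signals of 7.49, 8.22 and 9.11, with no overlap. It fell by 2.51 (SE 0.18, adjusted p = 2.79e-07), after -0.29 at 0 to 4 h. HK2, PFKP and SLC16A3, which act in early steps of glycolysis and in lactate export, fell by 1.9 (adjusted p = 3.97e-07), 1.79 (adjusted p = 2.5e-07) and 1.4 (adjusted p = 1.27e-06), and the glucose transporter gene SLC2A1 by 1.13 (adjusted p = 5.65e-07). LDHA differed by -0.05 (adjusted p = 0.657), ALDOA rose by 0.46 (adjusted p = 0.0117), and GAPDH was saturated on all 18 arrays. The list median was -0.2 at 8 h and -1.2 at 9 h, a step that lies within a scan day.

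Sterol and fatty acid synthesis, ATF4 target and lysosomal genes had list medians closer to 0. In the sterol list 10 of 26 members (38.5%) were lower and 2 (7.69%) higher, against 30.8% and 30.3% of all genes, with a median of -0.15. HMGCS1, an early enzyme of cholesterol synthesis, differed by -0.23 (adjusted p = 0.13). FADS2, a fatty acid desaturase, rose by 0.6 (adjusted p = 4.75e-05), but its other probe, well above background on 16 of 18 arrays, differed by 0.06. In the ATF4 list 6 of 25 (24%) were higher and 8 (32%) lower, near the shares of all genes, with a median of -0.13. There the alanyl-tRNA synthetase gene AARS1 rose by 1.66 (SE 0.17, adjusted p = 4.63e-06), ATF4 by 0.69 (adjusted p = 3.06e-05), and the cystine transporter gene SLC7A11 fell by 1.58 (adjusted p = 0.000379). ASNS and PSAT1, enzymes of asparagine and serine synthesis, differed by -0.25 (adjusted p = 0.0971) and -0.48 (adjusted p = 0.00898). In the lysosome and autophagy list 13 of 29 (44.8%) were higher and 2 (6.9%) lower, against 30.3% and 30.8% of all genes, with a median of 0.28. ULK1, the kinase that starts autophagy, had untreated signals of 10.41, 10.91 and 11.01 and gefitinib signals of 12.7, 13.21 and 13.46, did not overlap and rose by 2.39 (SE 0.07, adjusted p = 8.62e-10). The cathepsin gene CTSB rose by 1.2 (adjusted p = 2.45e-06), CTSD and LAMP1 differed by 0.16 (adjusted p = 0.477) and 0.28 (adjusted p = 0.0741), and TFE3, a factor that drives lysosomal genes, fell by 0.51 (adjusted p = 0.0126).

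**Figure D4:**
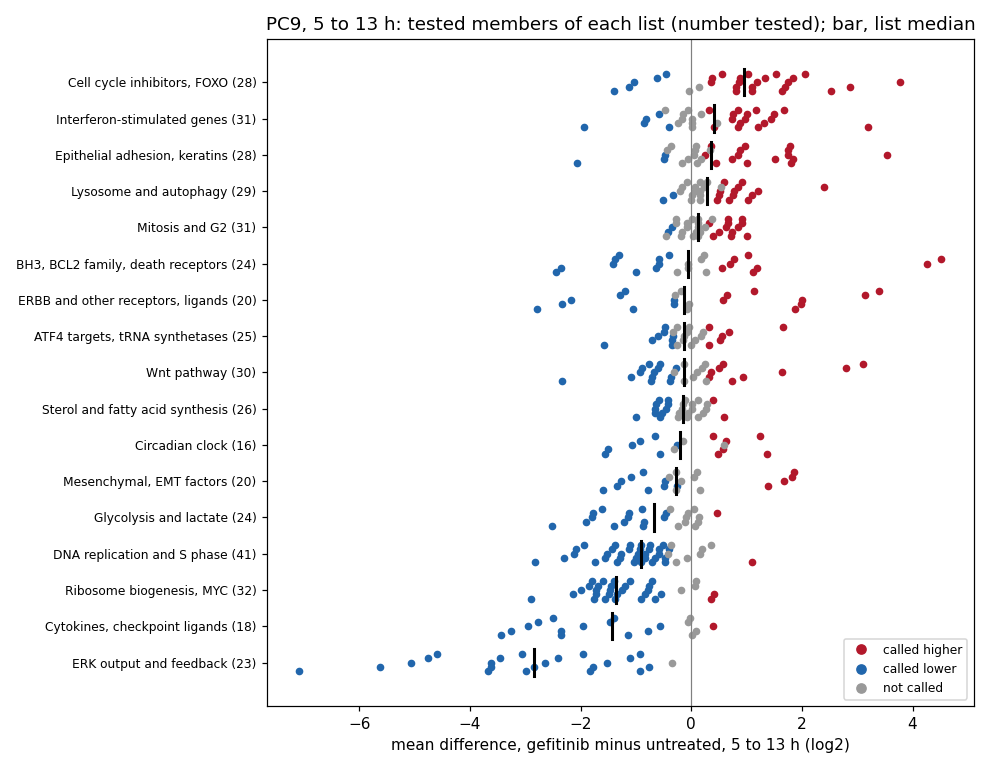
Mean difference over 5 to 13 h (horizontal axis, log2) of every tested member of 17 gene lists (vertical axis, with the number tested), coloured by call, with a bar at the list median. The ERK list lies wholly below 0 with a median of -2.84, and the list of cell cycle inhibitors lies mostly above 0 with a median of 0.96.

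Of 31 tested interferon-stimulated genes, 16 (51.6%) were higher and 5 (16.1%) lower, against 30.3% and 30.8% of all genes, with a median of 0.42. IFITM1, an antiviral membrane protein, passed the background mark on 1 untreated array and on all 9 with gefitinib, with signals of 2.37, 3.57 and 4.27 against 5.32, 6.68 and 7.68. It did not overlap and rose by 3.19 (SE 0.26, adjusted p = 7.4e-07), after 0.62 at 0 to 4 h and before 5.98 at 14 to 24 h. IFI6 and the factor IRF7 rose by 1.44 (adjusted p = 8.94e-07) and 1.17 (adjusted p = 1.13e-06), also without overlap, and IFIT1, which binds viral RNA, by 0.75 (adjusted p = 1.02e-05), with overlap. ISG15 and BST2 differed by 0.01 and -0.05 and were not called, and USP18, which removes ISG15 from proteins, fell by 1.93 (SE 0.13, adjusted p = 1.99e-07). Without 5 and 6 h, 15 members were higher and 6 lower.

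The element bound by interferon-activated factors was searched as GAAANNGAA on either strand. It stood in 15 of 25 promoters of the list (60%), in 6.42% of the promoters of tested genes and in 8.29% of all promoters. The promoters of IFITM1 (chr11:313790-314089, plus strand) and IFI6 (chr1:27672143-27672442, minus strand) are shown, with the matches in capitals. These genes rose most among the called members whose promoter holds the element, so its presence was a condition of the choice.
IFITM1: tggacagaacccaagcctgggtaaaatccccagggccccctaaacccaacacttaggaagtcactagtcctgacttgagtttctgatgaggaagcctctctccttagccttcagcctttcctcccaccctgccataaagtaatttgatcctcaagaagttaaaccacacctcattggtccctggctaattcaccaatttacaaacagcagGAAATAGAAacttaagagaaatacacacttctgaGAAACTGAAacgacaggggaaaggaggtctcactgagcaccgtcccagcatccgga
IFI6: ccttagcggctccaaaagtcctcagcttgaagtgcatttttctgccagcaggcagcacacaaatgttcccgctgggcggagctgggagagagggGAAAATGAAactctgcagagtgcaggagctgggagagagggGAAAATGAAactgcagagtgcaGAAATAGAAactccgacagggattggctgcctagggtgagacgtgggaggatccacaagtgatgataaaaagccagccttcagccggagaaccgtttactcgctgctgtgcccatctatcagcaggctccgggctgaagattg

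Cytokine, chemokine and checkpoint ligand genes fell, several of them to background. Of 18 tested members, 13 were lower and 1 higher, against 30.8% and 30.3% of all genes, with a median of -1.43, and 10 lay below all untreated signals (11.1% of all genes). For 8 of the 18 the difference was more negative than at 0 to 4 h (13.9% of all genes) and for 12 more positive than at 14 to 24 h (13.7%). CXCL8, the neutrophil chemokine interleukin-8, passed the background mark on 7 untreated arrays and on 0 of 9 with gefitinib, which puts it at least 10.8-fold lower (adjusted p = 1.66e-06). CSF2 and PDCD1LG2, well above background on 7 and 6 untreated arrays and on 0 of 9 with gefitinib, were at least 7.49-fold and at least 3.86-fold lower (adjusted p = 1.22e-09 and 2.11e-06). CXCL1 had untreated signals of 9.2, 9.96 and 10.5 and gefitinib signals of 6.6, 6.96 and 8.1, with no overlap, and fell by 2.76 (SE 0.22, adjusted p = 6.47e-07).

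CD274 encodes the checkpoint ligand PD-L1. It had untreated signals of 6.16, 7.09 and 7.77 and gefitinib signals of 2.53, 4.05 and 4.24, did not overlap, and fell by 3.25 (SE 0.25, adjusted p = 5.34e-07), with 5 of 9 gefitinib arrays well above background. IL23A, a subunit of interleukin-23, fell by 2.36 (adjusted p = 1.07e-06) after -0.14 at 0 to 4 h, and PLAUR, the urokinase receptor, by 2.49 (adjusted p = 2e-07). TNF, NFKBIA and ICAM1 differed by -0.03, -0.05 and 0.02 and were not called.

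The AP-1 element TGANTCA, which reads alike on both strands, stood in 4 of 15 promoters of this list (26.7%), in 4.83% of the promoters of tested genes and in 7.76% of all promoters. The promoters of CXCL8 (chr4:73740319-73740618, plus strand) and PLAUR (chr19:43670120-43670419, minus strand) hold it once each, in capitals. Holding the element was a condition of their choice.
CXCL8: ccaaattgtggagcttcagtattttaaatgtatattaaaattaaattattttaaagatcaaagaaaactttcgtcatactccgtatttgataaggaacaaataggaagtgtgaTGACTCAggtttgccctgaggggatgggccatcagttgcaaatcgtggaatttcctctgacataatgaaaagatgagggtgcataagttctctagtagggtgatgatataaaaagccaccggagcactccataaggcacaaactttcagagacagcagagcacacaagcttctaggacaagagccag
PLAUR: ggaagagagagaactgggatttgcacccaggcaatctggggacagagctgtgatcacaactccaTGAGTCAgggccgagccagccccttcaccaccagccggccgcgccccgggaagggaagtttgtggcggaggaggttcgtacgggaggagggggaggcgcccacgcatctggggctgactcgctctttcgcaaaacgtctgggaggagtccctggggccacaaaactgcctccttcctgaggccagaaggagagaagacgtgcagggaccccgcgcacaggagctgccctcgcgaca

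Epithelial genes rose more often than they fell. Of 28 tested members, 15 (53.6%) were higher and 3 (10.7%) lower, against 30.3% and 30.8% of all genes, with a median of 0.35, and 12 were more positive than at 0 to 4 h (15.2% of all genes). ELF3, an epithelial ETS factor, had untreated signals of 8.97, 9.28 and 9.83 and gefitinib signals of 12.56, 12.79 and 13.19, with no overlap, and rose by 3.53 (SE 0.1, adjusted p = 8.62e-10). CLDN3, MUC16, AGR2, DSP and MUC1 rose by 1.74 to 1.83, and the basal keratin gene KRT6A fell by 2.06 (SE 0.14, adjusted p = 2.6e-07). The MUC1 difference grew from 0.69 at 5 h to 2.91 at 13 h (slope 0.26 per hour, adjusted p = 0.0047).

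Of 20 tested mesenchymal genes and factors that drive epithelial-mesenchymal transition, 4 (20%) were higher and 9 (45%) lower, against 30.3% and 30.8% of all genes, with a median of -0.28. THBS1, TAGLN and CCN2 fell by 1.59 (adjusted p = 2.57e-07), 1.26 (adjusted p = 0.000365) and 1.09 (adjusted p = 0.00173), and VIM differed by 0.11 (adjusted p = 0.351). The transition factors SNAI1 and SNAI2 rose by 1.86 (SE 0.17, adjusted p = 2.25e-06) and 1.39 (SE 0.14, adjusted p = 3.74e-06), both without overlap. SNAI1 had untreated signals of 8.24, 8.62 and 9.08 and gefitinib signals of 10.12, 10.57 and 11.08.

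Among Wnt pathway genes 9 of 30 (30%) were higher and 13 (43.3%) lower, against 30.3% and 30.8% of all genes, with a median of -0.13. AXIN2, a feedback target of β-catenin, had untreated signals of 6.03, 6.51 and 7.2 and gefitinib signals of 8.37, 9.37 and 9.9, did not overlap and rose by 2.8 (SE 0.26, adjusted p = 2.18e-06). TCF7L1 rose by 3.11 (adjusted p = 1.16e-06), with 6 of 9 untreated arrays well above background, and WNT10A by 1.64 (adjusted p = 1.92e-05). ZNRF3, which removes Wnt receptors from the membrane, fell by 2.33 (SE 0.16, adjusted p = 2.75e-07), and SFRP1, a secreted Wnt inhibitor, by 0.93 (adjusted p = 1.99e-06). LEF1, a partner of β-catenin, differed by -0.13 (adjusted p = 0.515). Of 16 clock genes, 6 (37.5%) were higher and 7 (43.8%) lower, against the same shares of all genes, with a median of -0.2. PER1 rose by 1.37 (adjusted p = 3.51e-06) and DBP by 1.25 (adjusted p = 9.06e-06), while CRY1 and CLOCK fell by 1.56 (adjusted p = 0.000271) and 1.5 (adjusted p = 2.86e-05), and BMAL1, the partner of CLOCK, by 0.66 (adjusted p = 0.00221).

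Outside the lists, the largest rises among genes well above background on all 18 arrays belonged to ATP6V1B1, TMT1A, CYP4B1, ALPG, SEMA5B, CSF1R, DEPP1 and FAM78A. ATP6V1B1, a subunit of the proton pump of acid-secreting cells, had untreated signals of 5.8, 6.04 and 6.8 and gefitinib signals of 10.03, 11.32 and 11.81. It did not overlap and rose by 4.94 (SE 0.21, adjusted p = 7.63e-09), a level 30.8-fold higher. The other 7 rose by 3.64 to 4.39, among them CYP4B1, a cytochrome P450 of lung epithelium (4.3, adjusted p = 1.02e-08), and CSF1R, the receptor kinase of macrophage colony-stimulating factor (3.9, adjusted p = 2.65e-08). All 8 lay above every untreated signal. ALPG has near-identical relatives among the alkaline phosphatases, so the source of its signal (a rise of 4.1) is uncertain.

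The largest falls after DUSP6, among genes well above background on all 18 arrays, were in STEAP1 (-4.07), ANKRD22 (-3.97), MARCHF4 (-3.91) and EGR1 (-3.61). G0S2 (-3.49), SHC3 (-3.49) and ADAM19 (-3.43) came next. All of these lay below every untreated signal, with adjusted p of 1.24e-06 or less. STEAP1, a membrane metalloreductase, had untreated signals of 8.65, 8.85 and 9.3 and gefitinib signals of 4.22, 4.65 and 5.77, after a difference of -0.79 at 0 to 4 h. SHC3, an adaptor of receptor kinases, had differed by -0.55 at 0 to 4 h and differed by -3.32 at 14 to 24 h.

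There were 17 genes well above background on all 9 gefitinib arrays and, with every probe of the gene considered, on 0 untreated arrays. In the reverse case there was 1, SPRED1. The largest bounds were those of SCIN, an actin-severing protein, at least 23.4-fold higher (adjusted p = 3.45e-09), GPER1, a membrane receptor for estrogen, at least 21.2-fold (adjusted p = 1.86e-09), and CIITA, the master regulator of MHC class II genes, at least 20.5-fold (adjusted p = 1.06e-08). The gefitinib signals of CIITA were 5.77, 7 and 8.38, and its slope of 0.23 per hour was called (adjusted p = 0.00592). The other probe of CIITA differed by 1.75 and was well above background on 4 of 18 arrays.

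For 115 genes the middle window stood out, the difference being larger there than in both other windows by the test of each contrast, in 49 as a rise and in 66 as a fall. They were selected for this pattern, and the contrasts that follow describe them. KYNU, an enzyme of tryptophan breakdown, had untreated signals of 5.72, 5.91 and 6.17 and gefitinib signals of 7.24, 7.43 and 7.93, with no overlap and a difference of 1.55 in the window, 0.38 before it and 0.43 after it. PER1, a clock repressor, differed by 1.37 in the window, 0.5 before and -0.05 after, and the innate immune receptor gene TLR6 by 1.41, 0.36 and 0.25, though its other probe differed by 0.45. The potassium channel gene KCNQ1 and SESN3, a FOXO target, were not well above background on any untreated array of the window and were at least 6.29-fold and 3.37-fold higher with gefitinib. On the falling side, next to BCL2, the sorting adaptor gene AP1S3 differed by -2.49 in the window, -1.04 before and -1.35 after, and NCS1, a neuronal calcium sensor, by -1.23, -0.12 and -0.2. SPRED2 differed by -4.76, -2.37 and -3.24, with a bound of at least 27.1-fold for this probe, but its other probe differed by -0.48 and was well above background on 3 of 18 arrays. SLC6A8, the creatine transporter gene, differed by -1.25, -0.19 and -0.16, and by 0.07 on its other probe.

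The steepest slopes within the window were also named by rank. Among rises, the difference of PTGIS, prostacyclin synthase, grew by 0.39 per hour (adjusted p = 0.0081), that of the water channel gene AQP3 by 0.33 (adjusted p = 0.0087), BACE1 by 0.35 (adjusted p = 0.0171) and CEP290 by 0.41 (adjusted p = 0.0171). AQP3 had gefitinib signals of 11.63, 12.44 and 13.61 and untreated signals of 8.64, 8.99 and 10.09. Among falls, ARNT2 changed by -0.43 per hour (adjusted p = 0.000546), MARCHF4 by -0.41 (adjusted p = 0.00267), GPR19 by -0.41 (adjusted p = 0.000725) and the laminin receptor gene ITGA6 by -0.36 (adjusted p = 0.00168). Without 5 and 6 h none of these slopes was called, as stated above for all genes.

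In the presence of EGF most of the response of PC9 was found again. With EGF on both sides, the gefitinib difference was called for 9573 genes (74.1%), 4787 (37%) higher and 4786 (37%) lower. Without EGF 7891 genes had been called, and 7506 of these (95.1%) were called with it, 7499 in the same direction and 7 in the opposite one, and the differences with and without EGF had a Pearson r of 0.97 over genes, which are not independent replicates. The 2 comparisons share the slides but no array. The EGF sample always lay at position 2 of the slide and the sample with EGF and gefitinib at position 3. A change with EGF and an effect of slide position therefore cannot be told apart. The difference itself changed with EGF for 617 genes (4.77%), more positive for 402 (3.11%) and more negative for 215 (1.66%). Without the pairing by hour 49 genes were called, and with 1 hour left out between 287 (without 11 h) and 592.

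S phase genes were often among them. For 19 of 41 the difference changed with EGF, against 4.77% of all genes, and the list median was -0.46 with EGF and -0.91 without. GINS2, MCM6, MCM2 and E2F1 fell less with EGF, by 0.61 (adjusted p = 0.013), 0.49 (adjusted p = 0.0173), 0.48 (adjusted p = 0.0159) and 0.6 (adjusted p = 0.0258) on the log2 scale. The mitosis list had 25 of 31 members higher and 0 lower with EGF (37% of all genes each way) and a median of 0.49, and for 9 members the difference changed. For CCNE1 the change was -0.24 (adjusted p = 0.185), and for DUSP6 -0.22 (adjusted p = 0.294). In the interferon list 8 of 31 and in the cytokine list 7 of 18 members changed, CD274 falling further with EGF by 1.38 (adjusted p = 0.00338).

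In PC9GRM2 fewer genes were called. The gefitinib difference was called for 5432 genes (42%), 2727 (21.1%) higher and 2705 (20.9%) lower, the median absolute difference was 0.35 against 0.44 in PC9, and the differences of the 2 lines had a Pearson r of 0.84 over genes. The lines lay on separate slides. The difference itself differed between the lines for 1325 genes (10.3%), more positive in PC9GRM2 for 634 (4.9%) and more negative for 691 (5.35%). With 1 hour left out the count lay between 762 (without 12 h) and 1346.

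The ERK genes set the lines apart. For 16 of 23 members the difference was more positive in PC9GRM2 and for 0 more negative (4.9% and 5.35% of all genes), with list medians of -0.81 in PC9GRM2 and -2.84 in PC9. DUSP6 fell by 1.65 in PC9GRM2 and by 7.08 in PC9, a difference between the lines of 5.43 ± 0.23 (adjusted p = 9.04e-08). EGR1 rose by 1.83 in PC9GRM2 (adjusted p = 1.1e-05), where it fell in PC9, so that the lines differed by 5.45 ± 0.23 (adjusted p = 9.04e-08). FOS differed by 0.16 in PC9GRM2 (adjusted p = 0.247), SPRY4 fell by 1.11 there (adjusted p = 0.000375), and both were called as differing between the lines, by 3.22 and 4.52 (adjusted p = 1.17e-06 and 5.9e-07). EGR1, DUSP6 and FOS were named as the 3 largest positive differences between the lines among genes well above background on all 36 arrays.

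Several other groups did not follow that pattern. For the S phase list the medians were -1.09 in PC9GRM2 and -0.91 in PC9, with 38 of 41 members lower in PC9GRM2 (20.9% of all genes). The difference was more positive there for 1 member and more negative for 4, against 4.9% and 5.35% of all genes. GINS2 fell by 2 in PC9GRM2 and MCM6 by 1.51, and the differences between the lines were 0.12 and 0.04 (adjusted p = 0.825 and 0.932), which does not show that the lines respond alike. TNFSF10 and BMF rose by 4.95 and 4.61 in PC9GRM2, with differences between the lines of 0.43 (adjusted p = 0.101) and 0.36 (adjusted p = 0.498). The sterol list was lower in PC9GRM2, with a median of -0.78 against -0.15. There 22 of 26 members were lower (20.9% of all genes) and 11 more negative than in PC9 (5.35%). In the mitosis list 15 of 31 members were lower in PC9GRM2 (20.9% of all genes) and 9 were more negative than in PC9 (5.35%). The largest differences in the other direction, by rank, were ZBED2, TEX19 and HTRA3, which rose by 2.98, 2.34 and 3.1 in PC9 and differed by 0.4 (adjusted p = 0.0504), 0.26 (adjusted p = 0.298) and 1.11 (adjusted p = 9.43e-05) in PC9GRM2.

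**Figure D5:**
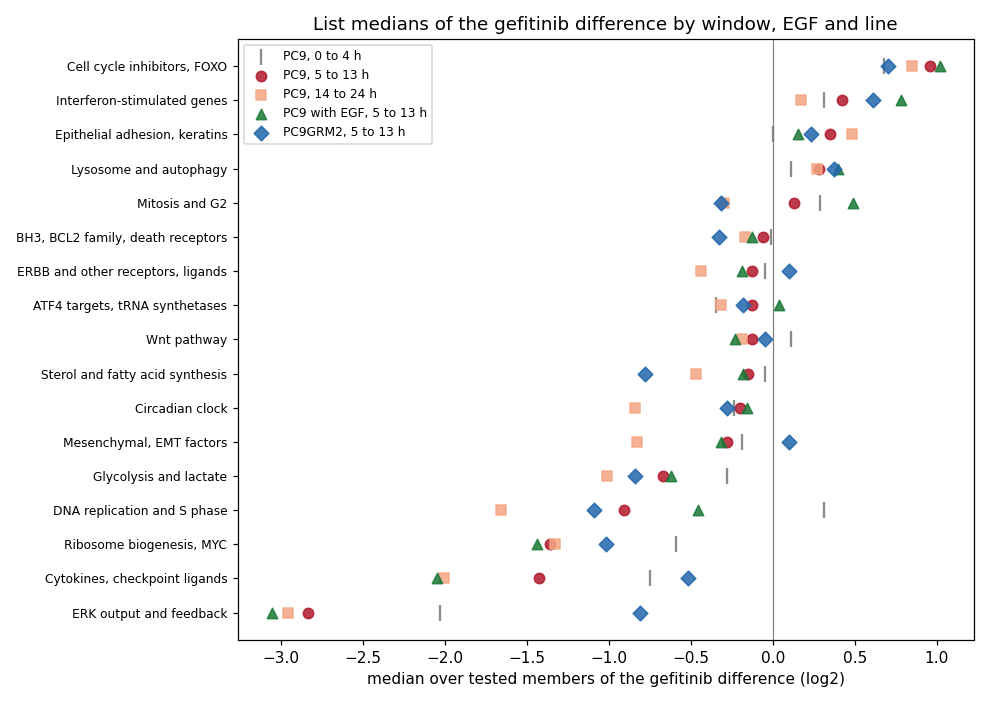
Median over the tested members of each list (vertical axis) of the gefitinib difference (horizontal axis, log2) in PC9 at 0 to 4 h, 5 to 13 h and 14 to 24 h, in PC9 with EGF at 5 to 13 h, and in PC9GRM2 at 5 to 13 h. The ERK median is -2.84 in the PC9 window and -0.81 in PC9GRM2, whereas the S phase medians are -0.91 and -1.09.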

How the data were processed

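Per the labels, RNA of each culture was hybridized in 1 colour (Cy3) to Agilent 44K arrays, 208 in all, and 18 of them form this comparison. The deposited scanner files hold background-subtracted, detrended intensities from Feature Extraction 10.5.1.1, as their headers state. The authors' deposited table holds the same intensities after quantile normalization over all 45015 features, which was checked by recomputation on 5 arrays (lowest correlation 1). The intensities were quantile normalized here over the non-control features of all 208 arrays, set to a floor of 1 and converted to log2. Outlier spots (0.0421% of values) were left out and spots of a probe averaged. Of 41000 probes, 24794 were named through accessions of the GRCh38.p14 RefSeq table, used for names and promoters only, and 16206 were not, which gave 16961 genes. For the 6040 genes with more than 1 probe, the probe of highest variance was used. Scanner files count no reads, so the number of arrays limits the precision.

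The 9 differences between gefitinib and untreated arrays of an hour were tested with limma 3.58.1 in R 4.3.3, with Benjamini-Hochberg adjustment over 12926 genes and a threshold of 0.05. Windows were compared within 1 fit over the paired differences of the whole course, slopes within the window, and EGF and the lines by differences of paired differences. The label of the hour is the only link between paired arrays, although both arrays of an hour share a slide. The fit was tested on simulated data. Members and lists were chosen with earlier results of these data known. Genes were named by fixed rules: the 8 largest rises and falls well above background on all 18 arrays, the largest bounds of genes seen on 1 side only, the 5 genes in each direction that exceed both other windows, the 4 steepest slopes each way, the 3 largest differences between the lines each way, and in each list the extremes, the first 2 entries and members discussed, except for a few genes that are not reported here. Alternatives covered scaling, background, probe choice, filter, floor, pairing, scan day, subsets of hours and the methods' own test. The background correction by normexp used the median signal of the spots.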

Additional observations from a re-analysis of the deposited data

Results flagged for a closer look

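NOP56 at 6 h stood apart from its other hours, with a difference of -0.9 where the other 8 hours lay between -1.59 and -1.28. It was the only 1 of 118 series examined in which the lowest or highest hour was so far from the rest, and chance alone would single out about 1 in 20.

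The gefitinib difference was not the same in all windows, lines and media. It differed between 5 to 13 h and 0 to 4 h for 3758 genes and between 5 to 13 h and 14 to 24 h for 3626, between the lines for 1325 and with EGF for 617. These counts come from tests of the difference itself.

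Among genes whose middle difference exceeded both others, the excess over 0 to 4 h and over 14 to 24 h was 2.09 and 1.52 for KCNQ1, 1.17 and 1.12 for KYNU, 1.05 and 1.15 for TLR6, 1.21 and 0.92 for SESN3, and 0.87 and 1.42 for PER1. On the falling side it was -2.22 and -2.34 for BCL2, -2.39 and -1.52 for SPRED2, -1.45 and -1.13 for AP1S3, -1.06 and -1.08 for SLC6A8, and -1.12 and -1.03 for NCS1. KCNQ1, TLR6, SESN3, SPRED2 and AP1S3 lost a contrast under normexp, and TLR6, SPRED2, SLC6A8 and NCS1 when the probes of a gene were averaged. KYNU, PER1 and BCL2 lost neither under these 2 settings. In the window KCNQ1 and SESN3 were not well above background on any untreated array, and the probe used for SPRED2 on any gefitinib array. The sizes of their excesses are therefore uncertain.

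Between the lines, the difference in PC9GRM2 exceeded that in PC9 by 5.45 for EGR1, 5.43 for DUSP6 and 3.22 for FOS, and the change was -2.58 for ZBED2, -2.08 for TEX19 and -1.99 for HTRA3.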

How the results depend on the processing

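Among the alternative counts of called genes 65 stayed within 1.5 times the reported count and 24 did not, and among the list medians 317 stayed within their spread and 6 did not. For named genes 2157 values kept direction and call, 69 lost the call, 24 gained it and 5 changed sign.

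The count of 7891 called genes was 7643 to 8196 under the other scalings, backgrounds, probe choices and floors, 6666 with the filter on all 18 arrays, 7681 with the methods' t-test after adjustment, 7367 with scan day as a random block, 7365 to 7934 with 1 hour left out, and 8056 without 5 and 6 h. It was 2432 with a difference of at least 1 log2 unit in addition, 4340 from the hours 6, 8, 10 and 12 alone, 2431 within the scan day of 5 to 6 h and 4992 within that of 7 to 9 h, all from fewer hours or a further condition. Under 75th percentile scaling 53.6% of called genes were higher, against 49.6% as reported. With at least 1 log2 unit the contrasts to 0 to 4 h, to 14 to 24 h and to PC9GRM2 gave 1403, 944 and 451 genes. The slope count of 912 was 1465 with scan day as a random block, 564 with a spline, 168 to 932 with 1 hour left out (5, 6, 12 and 13 h each moved it by over 1.5 times) and 0 without 5 and 6 h, and the cause was not tested. The count between lines was 762 to 1346 with 1 hour left out, moved most by 7, 9, 12 and 13 h, and that for EGF 287 to 592, moved most by 7, 8, 10, 11 and 13 h.

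The replicate block here is the hour. Without the replicate block 7566 genes were called in the main comparison, 1327 between lines and 49 for EGF. Arrays of the same hour correlated in their deviations from the group means by -0.104 to 0.514 for gefitinib and untreated, 5 of 9 gefitinib arrays correlating best with their own hour, by 0.233 to 0.78 for the EGF pair, and by -0.368 to 0.0987 for the 2 lines.

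Under normexp, with an offset of 50, the list medians shrank to -1 (ERK), 0.53 (cell cycle inhibitors and FOXO targets) and -1.17 (ribosome biogenesis). Those of the interferon and cytokine lists shrank to 0.11 and -0.21. The cause of the shrinkage was not tested. The ERK list was then no longer the lowest, as the ribosome biogenesis median lay below it under normexp. Under 75th percentile scaling the receptor list had a median of 0.05. With the brightest probe, SLC6A8, LAMP1 and KRT18 differed by 0.07, -0.02 and -0.1, and without 5 and 6 h CCNB1 and LEF1 differed by -0.03 and 0.03. None of the last 4 was called as reported. With 1 array per hour, differences under the spread between hours could not be seen, and dim genes had bounds only.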
